A study of Sus scrofa with 8 samples.

Results

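The genes described here encode translation initiation and elongation factors, the proteins that load messenger RNA onto ribosomes and move them along it. They were taken as every gene whose platform symbol starts with EIF or EEF, using probe sets annotated with a single symbol. For a gene with several probe sets the one with the highest mean log2 level over the 8 arrays was used, and that mean had to lie above 5.27. Of 64 such probe sets for 42 genes, 41 genes met the rule, 35 with an EIF and 6 with an EEF symbol, out of 5406 genes above the same level on the array. The member closest to the threshold was the interferon-induced kinase EIF2AK2, with a mean of 7.25. The single gene left out by it was EIF1AY, with a mean of 3.02. Of the EIF and EEF symbols in the current porcine gene table, 23 had no single-symbol probe set in the annotation used and were not analysed here. Among them were EIF4EBP1, the best known repressor of the cap-binding protein, EEF1A2, EEF2, EEF2K, EIF5, EIF2S3 and EIF2B5. A further 6 probe sets with several symbols name an EIF or EEF gene and were not used, nor were those without a symbol. A gene is called measured below if it had a single-symbol probe set above the level filter.

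Levels were measured on Affymetrix porcine arrays in the hind-limb muscle biceps femoris of female domestic piglets, in a model of acute quadriplegic myopathy, the limb weakness that follows intensive care. The 4 control arrays carry the label of sedation and mechanical ventilation, sampled on day 5. The 4 corticosteroid arrays came from piglets under the same sedation and ventilation that were given hydrocortisone boluses over the 5 days. Both protocol texts name isoflurane, morphine and ketamine, a glucose infusion and 2 antibiotics, streptomycin and bensylpenicillin. The control text alone adds an Escherichia coli endotoxin infusion of 36 µg/kg/h for 1 h, which the source label of those samples does not mention. The design text of the series also names pancuronium, which blocks the neuromuscular junction, and leaves unsaid which piglets were given it. The mean weight given is 25.5 kg in the control text and 26.4 kg in the other, and ages are not given. Corticosteroid, endotoxin and any processing batch therefore cannot be told apart. Whether the arrays stem from separate animals is not in the labels; p-values thus reflect the spread between these arrays alone, and the number of arrays limits the precision.

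Array medians lay between 5.89 and 5.97 in controls and between 5.87 and 5.91 with corticosteroid. The 8 fibre markers examined (among them CKM, TTN and MYH7) were all above the level filter, with an array mean between 12.81 and 13.27. Of these 8 markers 5 had higher and 3 lower means with corticosteroid. The groups did not overlap for MYH7, the myosin of slow fibres (-1.17, SE 0.32), or for TNNT3, the troponin T of fast fibres (0.66, SE 0.21). For CKM (0.10, SE 0.07) they were barely apart, with control 4 and corticosteroid 4 both at 13.99. Over all genes 5.42% did not overlap. Of 5 fibroblast markers 3 had higher means, with no overlap for POSTN (1.31, SE 0.34). No marker passed the adjusted test in limma, and the part of these markers in the values below was not tested. Of 7 lymphocyte markers named on the array, 6 lay below the filter (CD2, CD3E, CD3G, CD4, CD79B and CD8A). The mean of 7 macrophage markers was 8.81 on control 2 and between 6.59 and 7.06 on the other controls, against 6.19 to 7.01 with corticosteroid. All 7 had lower means with corticosteroid. The mean of 2 erythroid markers was 6.81 to 8.41 in controls and 6.29 to 6.95 with corticosteroid, with no overlap for HBB (-0.55, SE 0.22). That of 4 adipocyte markers was 8.14 to 9.43 in controls and 7.85 to 10.1 with corticosteroid. For 7 endothelial markers it was 7.89 to 8.03 against 7.85 to 8.16, and for 3 satellite cell markers 7.59 to 9.09 against 7.67 to 8.51. In the deposited table the corticosteroid columns follow another row order than the control columns, and they were re-assigned to the probe IDs by the text of those IDs. Of the 41 genes, 19 lie in rows that this step moves and 22 do not.

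Translation starts when the factor eIF2 brings the initiator tRNA to the small ribosomal subunit, held open by eIF1, eIF1A and the large scaffold eIF3. The complex eIF4F, made of the cap-binding protein eIF4E, the scaffold eIF4G and the helicase eIF4A, recruits the messenger RNA, and eIF5B joins the large subunit. eIF2 must then be recharged with GTP by eIF2B, a step that stress kinases block by phosphorylating eIF2, while 4E-binding proteins hold eIF4E back when mTOR signalling is low. During elongation eEF1A delivers aminoacyl-tRNA and is recharged by the eEF1B subunits. In skeletal muscle, loss of protein mass under glucocorticoids is known to involve lower initiation as well as faster breakdown.

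Genes of the guanine exchange factor eIF2B stood higher with corticosteroid for 4 of the 4 subunits measured, where 54% of all genes did. Genes of the cap-binding group stood lower for 7 of 9, by -0.02 to -1.07, but the array means of this group overlapped. No gene passed the test over all probe sets. The largest higher means were those of EIF2B3 (0.62), EEF1D (0.57), EIF2B2 (0.54), EEF1A1 (0.51) and EIF2B4 (0.51), each a log2 difference of corticosteroid minus control. The largest lower ones were those of EIF5B (-1.21), EIF4E (-1.07) and EIF4A1 (-0.71). In limma, with Benjamini-Hochberg adjustment over 14361 probe sets, 0 of the 41 genes had an adjusted p under 0.05 (their smallest was 0.469), as had 0% of all 5406 genes. At an unadjusted p under 0.05 there were 9 genes of 41 (22%), against 9.17% of all genes. Of these, 6 were higher with corticosteroid (14.6% of the 41, against 5.27% of all genes) and 3 were lower (7.32%, against 3.9%). In bulk tissue a smaller share of cells of one type and less RNA per cell cannot be told apart, for these and all following values.

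The 9 genes are EIF2B2, EIF2B3, EIF2B4, EIF3K, EEF1A1 and EEF1D on the higher side and EIF4E, EIF4G2 and EIF5B on the lower. Of them 4 (EIF2B3, EIF2B4, EIF4G2 and EIF5B) lie in rows that the re-assignment does not move. The count of 9, which is 22% of the 41 against 9.49% of all probe sets tested, depended on single arrays. Without control replicate 2, control replicate 3 or corticosteroid replicate 4 it was 5 (12.2%), against 8.7%, 6.28% and 6.21% of all probe sets. Without control replicate 4 it was 4 (9.76%, against 9.78%), and without corticosteroid replicate 3 it was 3 (7.32%, against 7.14%), so in these last cases the share of the 41 genes was that of all probe sets. The arrays of both groups did not overlap for 6 genes (14.6%, against 5.42% of all genes), namely EIF2B2, EIF2B3, EIF3K and EEF1D on the higher and EIF4G2 and EIF5B on the lower side. Such full separation is, by construction, the smallest p of an exact two-sided permutation test of 4 arrays against 4 (p = 0.0286, unadjusted), and is no further result.

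The middle of the 41 genes lay where that of all genes did. Their median log2 difference was 0.03, as was that of the 5406 genes, and 53.7% had a higher mean, against 54% of all genes. A difference of under 0.3 in size was found for 29 of the 41 (70.7%, against 64.5% of all genes). Within groups the arrays lay close together for most of them, with a median pooled SD of 0.24 log2 units against 0.32 over all genes. The lowest mean level of the 41 was 7.25, while all genes reach down to the filter at 5.27. The part of level in the smaller SD was not tested.

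**Figure D1:**
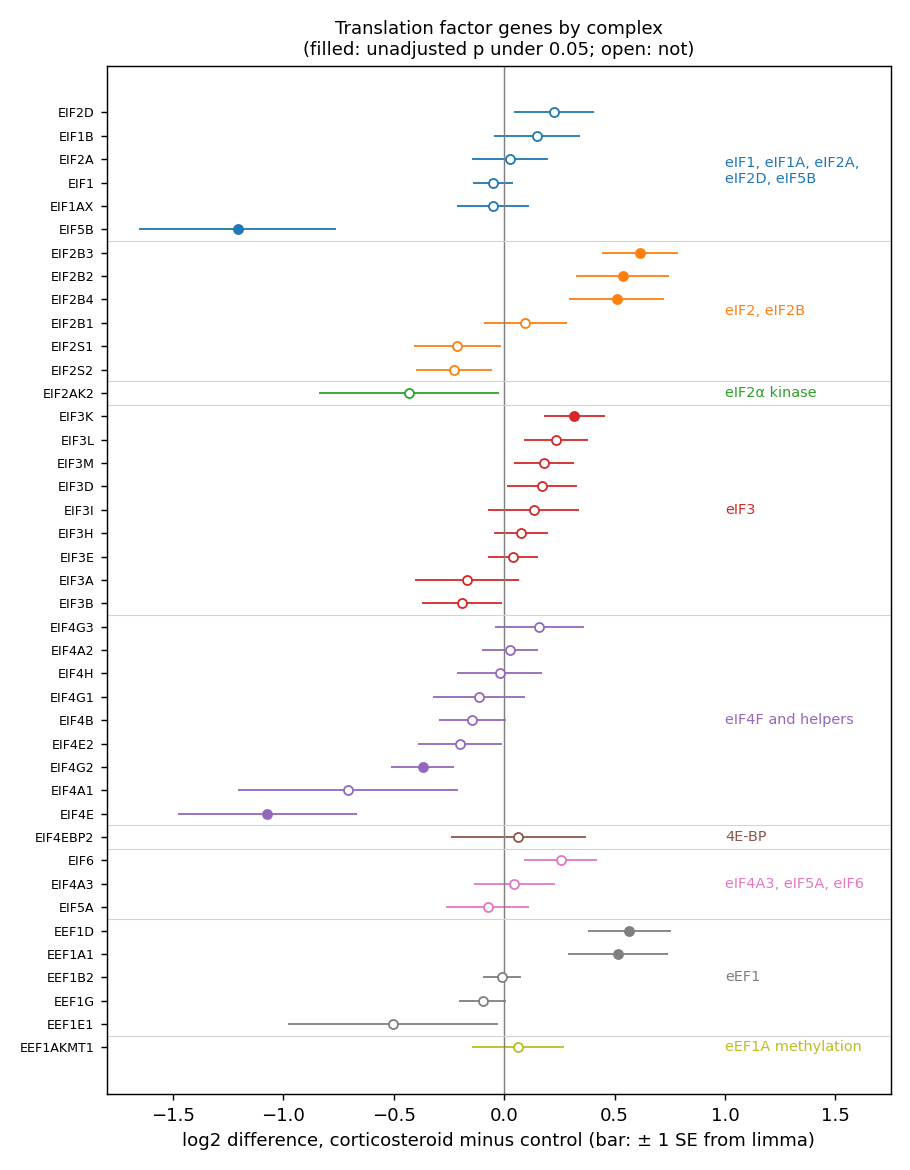
Log2 difference (corticosteroid minus control, bars ± 1 SE from limma) of each of the 41 genes, grouped by complex, with filled points at an unadjusted p under 0.05. The eIF2B subunits lie to the right of 0, from 0.10 to 0.62, and 7 of 9 genes of the eIF4F group lie to the left.

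The eIF2B subunits form the enzyme that returns GTP to eIF2. EIF2B3 encodes the gamma subunit, a partner of the catalytic epsilon subunit. Its log2 level was 7.70, 7.44, 7.50 and 7.46 on control replicates 1 to 4 and 7.94, 7.98, 8.23 and 8.41 on corticosteroid replicates 1 to 4. Every corticosteroid array lay above every control array, and the mean was 8.14 ± 0.22 (SD, n = 4) against 7.52 ± 0.12 (SD, n = 4). The difference of 0.62 (SE 0.17) had an unadjusted p of 0.00541 and an adjusted p of 0.469 in limma, and no other of the 41 genes had a smaller p.

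EIF2B2, the beta subunit of the regulatory core, stood at 9.35, 8.75, 9.34 and 9.22 in controls and at 9.63, 9.47, 10.10 and 9.61 with corticosteroid. The groups were again apart, although the lowest treated and highest control arrays were close. The difference was 0.54 (SE 0.21), with an adjusted p of 0.482 in limma. EIF2B4, the delta subunit of that core, stood at 9.85, 9.02, 9.72 and 9.62 in controls and at 9.81, 10.11, 10.07 and 10.27 with corticosteroid. Here corticosteroid replicate 1 lay just below control replicate 1, so the groups overlapped. The difference was 0.51 (SE 0.21), with an adjusted p of 0.511 in limma, and it was 0.33 without control replicate 2. EIF2B1, the alpha subunit, through which phosphorylated eIF2 is sensed, differed by 0.10 (SE 0.19). Control 2 was the lowest array for EIF2B2, EIF2B3 and EIF2B4, and it also had the highest macrophage marker mean. The part of those cells in the result was not tested.

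The subunits measured of eIF2 itself, the substrate of this enzyme, had lower means. EIF2S1 encodes eIF2 alpha, the subunit phosphorylated under stress, and stood at 10.70, 10.90, 11.07 and 10.68 in controls and at 10.91, 10.57, 10.84 and 10.17 with corticosteroid. The groups overlapped, and corticosteroid 4 was the lowest array. The difference was -0.21 (SE 0.20, adjusted p = 0.708 in limma), and it was -0.06 without corticosteroid replicate 4. The beta subunit EIF2S2 differed by -0.23 (SE 0.17). EIF2AK2, the double-stranded RNA-activated kinase PKR, is the only one of the 4 eIF2 alpha kinases measured. It stood at 8.10, 7.65, 7.30 and 6.79 in controls and at 6.72, 7.15, 8.08 and 6.18 with corticosteroid, a wide scatter in both groups. Its difference of -0.43 (SE 0.41, adjusted p = 0.714 in limma) was -0.78 without corticosteroid replicate 3 and -0.15 without corticosteroid replicate 4.

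**Figure D2:**
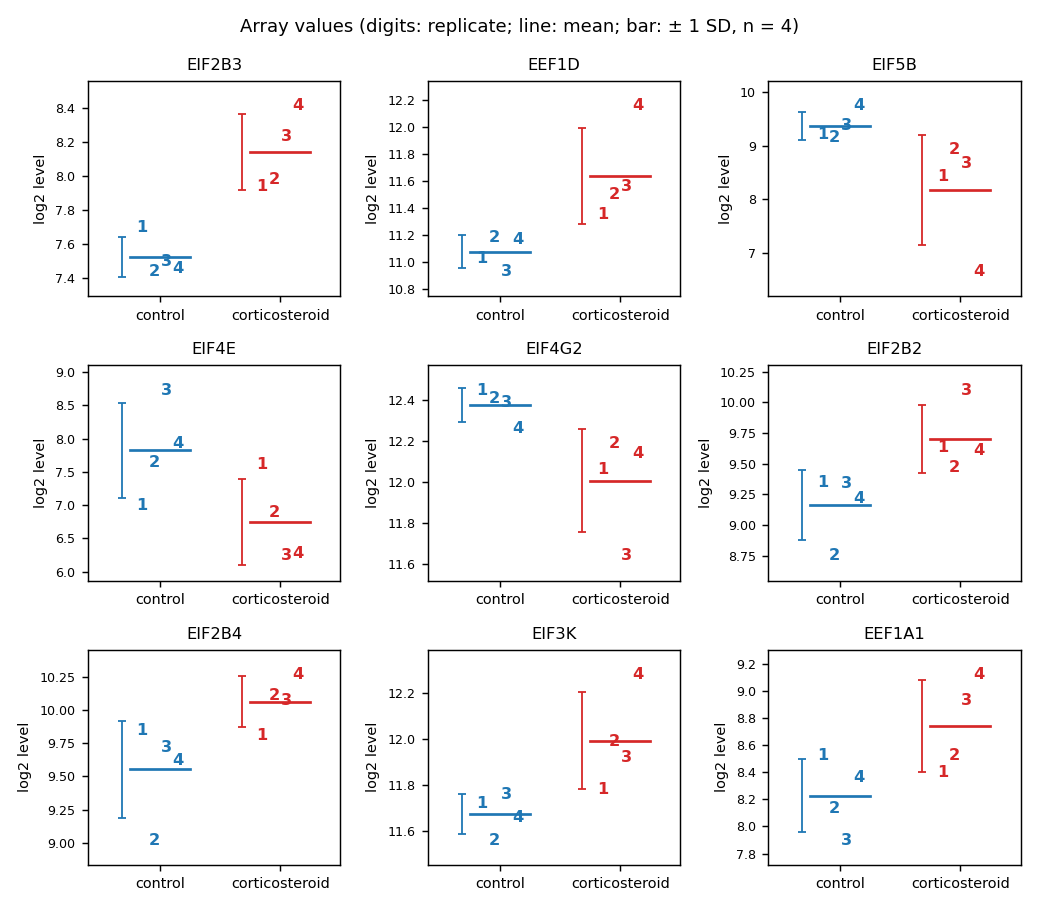
Log2 level of the 9 genes with an unadjusted limma p under 0.05, with digits for the replicate, lines for the mean and bars for ± 1 SD (n = 4); each panel has its own vertical scale. The groups are apart for EIF2B3, EEF1D, EIF5B, EIF4G2, EIF2B2 and EIF3K, and corticosteroid 4 lies far below the other treated arrays for EIF5B.

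Among the factors that position the initiator tRNA and join the subunits, EIF5B stood apart from the rest. This GTPase acts at the last step of initiation, when the large subunit joins. Its level was 9.21, 9.16, 9.38 and 9.74 in controls and 8.43, 8.92, 8.67 and 6.66 with corticosteroid. All treated arrays lay below all controls, with corticosteroid 4 far below the others. The difference was -1.21 (SE 0.45, adjusted p = 0.479 in limma) and -0.70 without corticosteroid replicate 4. A second EIF5B probe set above the filter differed by -0.14 (SE 0.20), with 7.02, 6.85, 7.32 and 6.97 in controls and 7.12, 7.15, 6.90 and 6.44 with corticosteroid, so the probe sets of this gene disagree in size and overlap. For the other 5 genes of this group the differences ran from -0.05 to 0.23. They are EIF1 and EIF1AX, which keep the small subunit scanning, the EIF1 paralogue EIF1B, and EIF2A and EIF2D, which can deliver initiator tRNA without eIF2.

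The scaffold eIF3 bridges the small subunit and the messenger RNA, and 9 of its subunits were measured. Means were higher for 7 and lower for 2, with a median difference of 0.13 and a range from -0.19 to 0.32. The peripheral subunit EIF3K was the only one at an unadjusted p under 0.05. It stood at 11.72, 11.56, 11.76 and 11.66 in controls and at 11.78, 11.99, 11.92 and 12.28 with corticosteroid. The groups were apart by a narrow margin, and the difference was 0.32 (SE 0.14, adjusted p = 0.524 in limma). EIF3L, which sits beside EIF3K at the edge of the complex, differed by 0.23 (SE 0.14) and EIF3M, a subunit of its core, by 0.18 (SE 0.14). EIF3D, which can itself bind the cap of some messengers, EIF3E, EIF3H and EIF3I differed by 0.04 to 0.17. The lower means were those of EIF3A and EIF3B, the largest subunits, which nucleate the complex, at -0.17 (SE 0.24) and -0.19 (SE 0.18).

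The eIF4F group, which holds helpers and relatives of the cap-binding complex too, was lower for 7 of 9 genes, with a median difference of -0.14. EIF4G3 and EIF4A2 had higher means. Of the 7, 2 had an unadjusted p under 0.05, EIF4E and the eIF4G relative EIF4G2. EIF4E encodes the protein that grips the cap of the messenger and is often the limiting part of eIF4F. Its level was 6.99, 7.64, 8.73 and 7.93 in controls and 7.61, 6.89, 6.24 and 6.27 with corticosteroid. Control 3 was highest and corticosteroid 3 and 4 lowest, and the groups overlapped because control 1 was low and corticosteroid 1 high. The difference was -1.07 (SE 0.41, adjusted p = 0.482 in limma), from 7.82 ± 0.72 (SD, n = 4) in controls to 6.75 ± 0.64 (SD, n = 4) with corticosteroid. This value rests on the re-assigned rows and on 1 probe set.

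EIF4G2 encodes DAP5, a relative of eIF4G that lacks the eIF4E-binding site and supports cap-independent initiation. It stood at 12.45, 12.41, 12.39 and 12.26 in controls and at 12.06, 12.19, 11.64 and 12.14 with corticosteroid. The groups did not overlap, and the row of this gene is not moved. The difference was -0.37 (SE 0.14, adjusted p = 0.482 in limma), and it was -0.25 without corticosteroid replicate 3. EIF4G1, the main scaffold that holds eIF4E and eIF4A together, stood at 10.39, 9.95, 10.02 and 10.57 in controls and at 10.46, 10.17, 9.81 and 10.03 with corticosteroid. The groups overlapped throughout, with a difference of -0.11 (SE 0.21, adjusted p = 0.865 in limma), and without control replicate 4 it was -0.0014. A second EIF4G1 probe set differed by -0.47 (SE 0.24).

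The helicase EIF4A1, which unwinds the messenger leader, had the widest scatter of the 41 genes, with a pooled SD of 0.85. It stood at 8.14, 10.31, 10.28 and 8.93 in controls and at 9.36, 8.65, 8.81 and 8.01 with corticosteroid. Control 2 and control 3 were more than 1 log2 unit above every other control array, and the difference of -0.71 (SE 0.50, adjusted p = 0.638 in limma) lies within that spread. Its paralogue EIF4A2 differed by 0.02 (SE 0.13). The other genes of the group differed by -0.20 to 0.16 in their probe sets of highest mean level. They are EIF4B and EIF4H, which assist the helicase, EIF4E2, a cap-binding relative of EIF4E that represses translation, and the scaffold paralogue EIF4G3. EIF4EBP2, the only 4E-binding repressor measured, stood at 9.26, 9.30, 9.20 and 10.03 in controls and at 8.76, 9.70, 9.50 and 10.09 with corticosteroid. The array numbered 4 was the highest of each group, and the difference of 0.06 (SE 0.31, adjusted p = 0.955 in limma) was -0.13 without corticosteroid replicate 4.

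Whether paralogues of this machinery differed from each other was examined in 8 pairs, by the log2 ratio of the pair within each array. The ratio of EIF4E to EIF4E2 differed by -0.87 (SE 0.43) between groups and that of EIF4G2 to EIF4G3 by -0.53 (SE 0.26), each with an exact two-sided permutation p of 0.114 (adjusted p = 0.411 over the 8 pairs). For EIF4A1 over EIF4A2 the difference was -0.73 (SE 0.68, exact permutation p = 0.343, adjusted p = 0.424), with ratios from -4.92 to -2.25 in controls and from -4.86 to -3.58 with corticosteroid. A single pair could not have passed: with full separation its adjusted p would be 0.229, and 5 of the 8 pairs would have to separate fully. The test therefore says nothing about whether paralogues differed. The pairs were chosen after their values were seen.

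The elongation factor eEF1 comprises the tRNA carrier eEF1A and the exchange subunits eEF1B2, eEF1D and eEF1G. EEF1D, the delta exchange subunit, stood at 11.03, 11.18, 10.93 and 11.17 in controls and at 11.35, 11.50, 11.56 and 12.16 with corticosteroid. The groups were apart, with corticosteroid 4 highest. The difference was 0.57 (SE 0.19, adjusted p = 0.479 in limma), from 11.08 ± 0.12 (SD, n = 4) to 11.64 ± 0.36 (SD, n = 4), in a row that the re-assignment moves.

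EEF1A1 stood at 8.52, 8.13, 7.90 and 8.36 in controls and at 8.40, 8.52, 8.93 and 9.12 with corticosteroid. Control 1 lay among the treated arrays, and the difference was 0.51 (SE 0.23, adjusted p = 0.524 in limma). This probe set carries the suffix that Affymetrix gives to probe sets shared by several transcripts, so signal from the close relative EEF1A2 cannot be set aside. A second EEF1A1 probe set stood at 6.89, 6.66, 6.51 and 6.75 in controls and at 7.05, 7.14, 7.32 and 7.34 with corticosteroid, without overlap, and differed by 0.51 (SE 0.15). The other exchange subunits held nearly the same level on all arrays. EEF1B2 lay between 13.08 and 13.25 on the 8 arrays and differed by -0.01 (SE 0.09), and EEF1G differed by -0.10 (SE 0.10). EEF1E1, which bears the eEF1 name but sits in the aminoacyl-tRNA synthetase complex, differed by -0.51 (SE 0.48), with 7.21 on corticosteroid 4 and 9.64 on control 3. EEF1AKMT1, a methyltransferase of eEF1A, stood at 9.93, 9.89, 9.45 and 10.17 in controls and at 9.80, 9.97, 9.66 and 10.25 with corticosteroid, with a difference of 0.06 (SE 0.21, adjusted p = 0.931 in limma). A second EEF1AKMT1 probe set differed by 0.36 (SE 0.20).

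The remaining factors differed by less than 0.3. EIF6, which keeps large subunits from joining too early, stood at 8.90, 9.22, 9.11 and 9.05 in controls and at 9.42, 9.19, 9.48 and 9.21 with corticosteroid. The difference was 0.26 (SE 0.16, adjusted p = 0.61 in limma), with overlap. EIF5A, the hypusine-bearing factor that eases difficult peptide bonds, differed by -0.07 (SE 0.19) and EIF4A3, the helicase of the exon junction complex, by 0.05 (SE 0.18). A list of 7 factors whose messengers start with a terminal oligopyrimidine tract, the feature that puts ribosomal protein messengers under mTOR control, had a median difference of 0.04. It holds EEF1A1, EEF1B2, EEF1D, EEF1G, EIF3E, EIF3H and EIF4B, of which 4 had higher means, and only EEF1A1 and EEF1D were at an unadjusted p under 0.05.

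**Figure D3:**
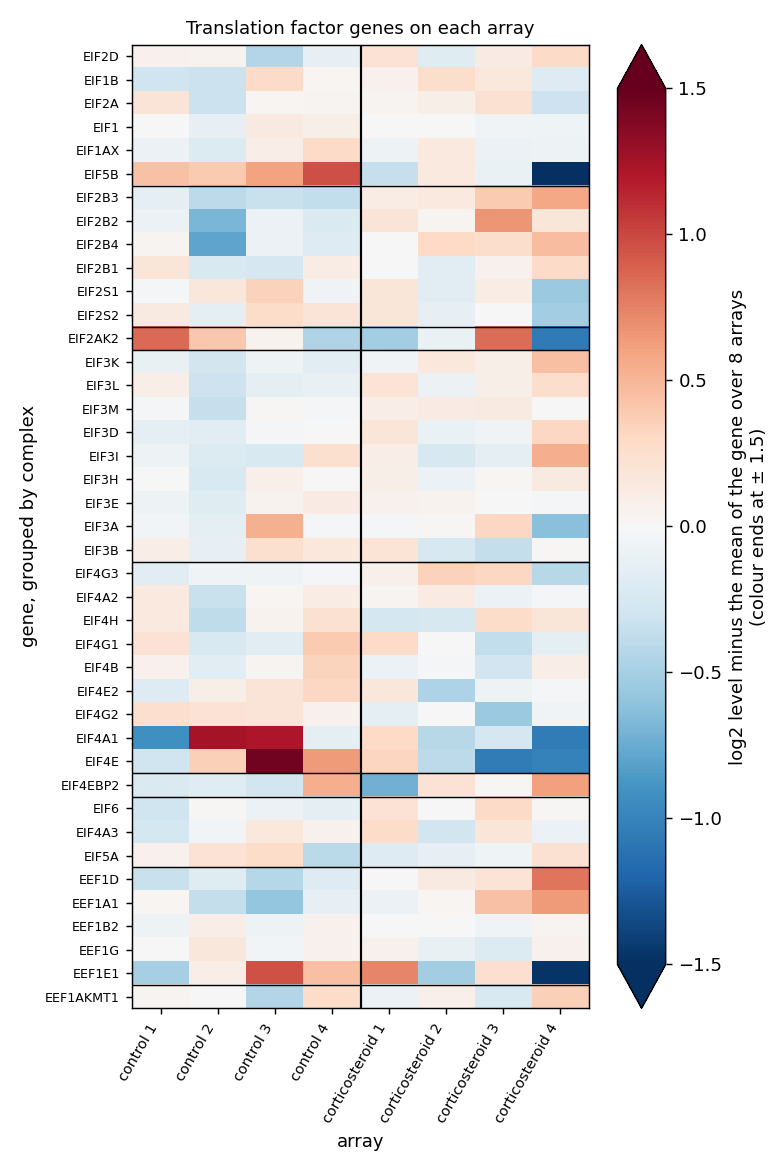
Log2 level of the 41 genes on the 8 arrays, each gene centred on its own mean, with complexes separated by black lines and values past the ends of the colour bar drawn in its end colours. Control 2 is the lowest array for 9 of the eIF2B and eIF3 genes, and the lowest cells of corticosteroid 4 are those of EIF5B and EEF1E1.

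Some arrays were the lowest or highest for many of the 41 genes. Control 2 was the lowest array for 15 of the 41 genes (36.6%, against 23.6% of all genes), 9 of which encode eIF2B or eIF3 subunits. Corticosteroid 4 was the highest array for 13 genes (31.7%, against 21.3%) and the lowest for 8 (19.5%, against 18.6%), the latter near the share of all genes. It was highest for EIF2B3, EIF2B4, EIF3K, EEF1D and EEF1A1 among others, and lowest for EIF5B, EIF4A1, EIF4G3, EEF1E1, EIF2AK2, EIF2S1, EIF2S2 and EIF3A. Centred on each gene, the mean of the 6 eIF2 and eIF2B genes was -0.34 on control 2 and 0.25 on corticosteroid 3, with the other arrays between -0.09 and 0.11. The groups overlapped there, with control 1 at 0.02 and corticosteroid 2 at 0.01. The mean of the 9 genes of the eIF4F group was 0.33 on control 3 and 0.22 on control 4, and -0.23 and -0.27 on corticosteroid 3 and 4. The groups overlapped in that mean, with control 1 at -0.08, control 2 at 0.09, corticosteroid 1 at 0.08 and corticosteroid 2 at -0.12.

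A further probe set above the filter was found for 15 of the 41 genes, 18 probe sets in all. The sign of the difference was the same as that of the leading probe set for 16 of the 18, and the values lay within 0.3 of each other for 13. The signs differed for EIF1 (-0.05 and 0.07) and EIF4B (-0.14 and 0.22). The widest gap was that of EIF5B. Besides EIF4B, values more than 0.3 apart were those of EIF3M (0.18 and 0.58), EIF4G1 (-0.11 and -0.47) and EIF4H (-0.02 with overlap of the groups and -0.32 without). Probe sets of a gene share the sample, so they repeat the measurement on the array and not the experiment.

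**Figure D4:**
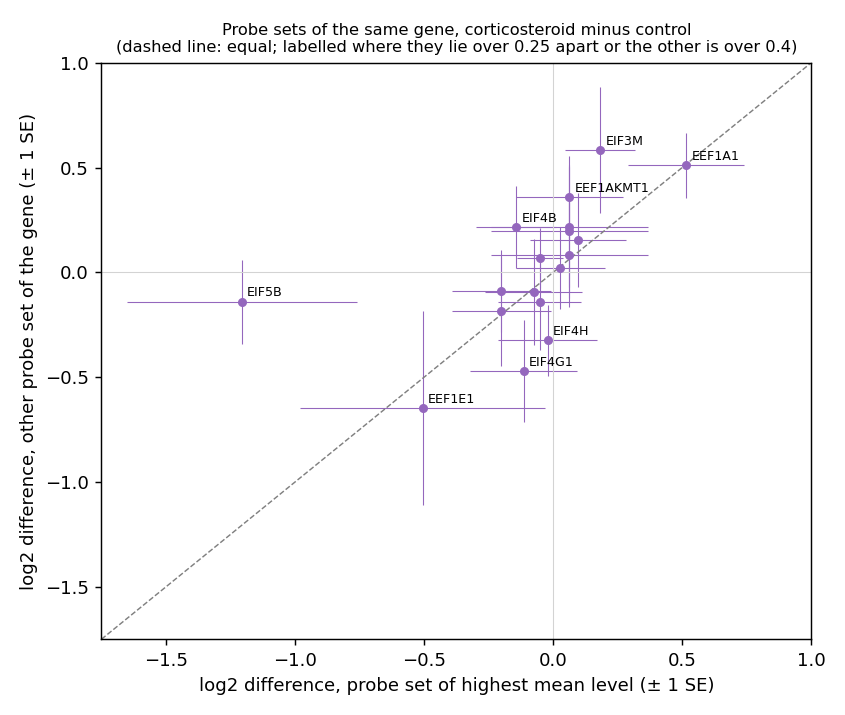
Log2 difference (corticosteroid minus control) of the leading probe set of a gene (horizontal) against that of each further probe set above the level filter (vertical), with bars of ± 1 SE from limma and a dashed line of equality. EEF1A1 lies on the line at 0.51 for both, and EIF5B lies far from it, at -1.21 and -0.14.

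Genes that work with these factors were followed through lists that do not overlap with them, and none of their genes had an adjusted p under 0.05 in limma; 6 of 71 had an unadjusted p under 0.05 (8.45%, against 9.17% of all genes), namely LARP4, PABPC1, MTFMT, AARS, LAMTOR4 and CEBPB. Among 8 poly(A)-binding proteins and cap regulators 5 had lower means, with a median difference of -0.37. PABPC1, the protein that coats the poly(A) tail and touches eIF4G, stood at 11.89, 12.40, 12.20 and 12.43 in controls and at 11.91, 11.85, 11.47 and 10.84 with corticosteroid. The difference was -0.71 (SE 0.24), and the groups overlapped by 1 array. LARP4, which binds poly(A) and stabilises messengers, differed by -0.98 (SE 0.32). Of 7 mitochondrial translation factors 6 had higher means, with MTFMT, which formylates the mitochondrial initiator tRNA, at 0.62 (SE 0.20) and the ribosome recycling factor MRRF at 0.33 (SE 0.18).

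Counts of higher and lower means in the upstream signalling lists do not give a direction of signalling. The lists join genes that promote a pathway with genes that restrain it, and only RNA levels were measured. Of 17 genes of mTORC1 signalling 9 had higher means and the median difference was 0.01. LAMTOR4, part of the lysosomal anchor of mTORC1, differed by 0.63 (SE 0.21) without overlap, and SESN1, an inhibitor of mTORC1, by 0.94 (SE 0.45). Of 16 genes of the integrated stress response, the programme that follows eIF2 phosphorylation, 10 had higher means and the median was 0.09. Its members of smallest p were CEBPB at 0.62 (SE 0.27), which glucocorticoids are also known to induce, and ATF3 at -1.71 (SE 1.08), whose control arrays ran from 4.94 to 10.47. Of 17 genes of the cytosolic aminoacyl-tRNA synthetases 10 had lower means and the median was -0.04, with AARS at -0.40 (SE 0.18) and NARS at -0.41 (SE 0.22). For the 4 genes of polyamine and hypusine synthesis the median was 0.13 (ODC1 -1.01, SE 0.61, and DHPS 0.40, SE 0.25). Of 2 further genes listed together, the rescue factor NEMF differed by -0.56 (SE 0.25). ABCF1, not itself a termination or rescue factor, differed by 0.07 (SE 0.19).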

How the data were processed

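RNA from biceps femoris was hybridised to Affymetrix porcine arrays, 1 per sample. The deposited values are log2 levels for 23999 probe sets; per the submitters' processing notes MAS5 was used, while the scaling applied by the authors is not stated in them. The row order that assigns corticosteroid values to probe IDs, sorted as text with full stops ignored, moves 39.1% of the rows and was found from the data. In moved rows it brings the correlation of group means across probe sets from 0.0997 to 0.989. Over 2470 pairs of probe sets of one gene more than 50 rows apart, it brings r within the corticosteroid group from 0.18 to 0.337. Applied to the controls, it lowers r from 0.329 to 0.182.

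Groups came from the sample titles. Without 64 reporter probe sets, the 14361 probe sets with a mean above the 40th percentile entered a linear model per probe set (limma 3.58.1, R 4.3.3; variances moderated by eBayes with a trend on mean level), and p-values were adjusted by Benjamini-Hochberg, threshold 0.05. Standard errors are those of limma, except for the paralogue ratios, where they come from the variance of each group without moderation. The fit was tested on simulated data. Single values used exact permutation tests (scipy 1.17.1). Names came from the platform annotation, where 10069 probe sets have 1 symbol, 198 several and 13668 none; 40 of the 41 genes matched the current gene table by gene ID.

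Array values are given for genes at an unadjusted p under 0.05, the smallest p of each complex, and, of 7 genes to be shown regardless, the 4 measured (EEF1A1, EIF2S1, EIF4E and EIF4G1); EIF4A1, the second EIF5B and EEF1A1 probe sets and PABPC1 were added after their values were seen. From each accompanying list the 2 genes of smallest p are named. The genes, lists and tests were chosen with earlier results of these data known. The labels do not say that a number marks a shared animal, litter or day, so the numbers were not taken to pair animals. Deviations from the group means correlated between arrays of the same number with r from -0.246 to 0.109. The own number gave the highest r for control replicates 2 and 4 and not for 1 and 3. Alternatives covered scaling, filters, log offset, variance models, array weights, probe set averaging, the replicate block, the deposited row order and leaving out arrays.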

Additional observations from a re-analysis of the deposited data

Results flagged for a closer look

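In 82 groups of 4 arrays (41 genes, 2 groups each) 3 held an array far from the others by Dixon's ratio of gap to range, which is 3.66% where about 1 in 20 groups would be flagged by chance. For EIF1AX, corticosteroid 2 stood at 10.57 with the other treated arrays between 10.34 and 10.35 (ratio 0.985). For EIF3M, control 2 stood at 10.87 with the other controls between 11.19 and 11.23 (ratio 0.886). For EIF4EBP2, control 4 stood at 10.03 with the other controls between 9.20 and 9.30 (ratio 0.885).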

How the results depend on the processing

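The number of genes with an adjusted p under 0.05 in limma remained 0 under all alternatives except the rows as deposited, where it was 18 of 41 (43.9%, against 38% of all probe sets). With those rows 22 genes (53.7%, against 42.5%) had an unadjusted p under 0.05 and the median difference was -0.37. There EEF1A1 differed by -1.27, EEF1D by -7.82, EIF3K by -2.71 and EIF4G1 by 1.64, each the opposite sign, and EIF4E by -2.45. EIF2B3, in a row that does not move, kept its 0.62, and its adjusted p of 0.0157 in limma goes with the many calls over that table. With the replicate block 5 genes had an unadjusted p under 0.05 (EEF1D, EIF2B2, EIF2B3, EIF4G2 and EIF5B; 12.2%, against 9.28% of all probe sets), and without control 2 and corticosteroid 4 together 4 (9.76%, against 6.45%). With 1 array left out the count was 3 to 9 (7.32% to 22%), while the share of all probe sets ran from 6.21% to 12.4%. With 1 array left out the median difference ran from -0.0235 to 0.065 and the adjusted count was 0 each time. EIF2B3 and EEF1D had an unadjusted p under 0.05 in 19 of 19 alternatives that keep the re-assigned rows, EIF5B in 18, EIF2B2 and EIF4G2 in 16, EIF4E in 13, EIF2B4 in 11, EEF1A1 in 10 and EIF3K in 6. Small differences changed sign. EIF4EBP2 was -0.0343 with array weights, -0.18 without control 2 and corticosteroid 4 together and -0.13 to 0.31 with 1 array left out. EEF1AKMT1 was -0.0386 without these 2 arrays and -0.0726 to 0.167 with 1 left out. The cause of these changes was not tested, beyond the row order itself. Leaving out an array changes both how many and which arrays are present, and these were not separated.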
